A study of Triticum aestivum with 21 samples.

Results

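A small set of transcripts was abundant in wheat anthers from before meiosis until the tetrads and then stood much lower once free pollen grains had formed. Of 61179 probe sets, counted without 111 array controls but with 64 reporter probe sets, 46 met this description. A probe set was counted when its mean log2 intensity was above 6 in each of the 5 earlier stages, when its immature pollen mean lay at least 2 (a 4-fold difference) below every one of those means, and when its mature anther mean was less than 6 below immature pollen. Probe sets of the study's Q-PCR primer list, 17 in all, were set aside, and none of them met the conditions. The last condition removed nothing, since the same 46 were found without it and the largest excess of immature pollen over mature anthers was 5.91. The members were thus chosen by their measured levels in immature pollen against the earlier stages, and those differences are described below with no test.

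The study profiled whole anthers of wild-type bread wheat (Triticum aestivum, cultivar Chinese Spring), grown in a glasshouse, on 21 Affymetrix Wheat Genome Arrays. There were 7 stages with 3 arrays each. PM stands for pre-meiosis, LP for leptotene through pachytene, DA for diplotene through anaphase I, and TT for both telophases. T denotes the tetrad stage, IP immature pollen and MAN the mature anther. No stage received a treatment, and the labels set the groups apart only by developmental stage. Staged anthers of several plants were pooled and the RNA was amplified, so the 3 arrays of a stage were technical replicates of 1 pool. Every SD, SE and p-value below measures only the spread between such arrays. Differences between stages therefore cannot be told apart from differences between pools. A whole anther holds the germ line together with the tapetum and the other wall layers. Fewer cells of a type and less RNA per cell cannot be told apart in such material.

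During anther development the meiocytes divide to form microspores that are first held together in tetrads within a callose wall. Callose is then dissolved, the microspores are freed, build an outer wall and begin their own mitotic programme. The tapetum, the innermost wall layer, nourishes the microspores, secretes wall material and is later broken down, while the maturing pollen fills with starch. The step between T and IP thus spans the change from enclosed to free microspores.

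Only 1 of the 46 carried a gene symbol in the platform annotation. Ta.204.1.S1_at was listed as LOC542836, a protein-coding locus with no descriptive name, and none of the members had a gene name. Annotation was sparse for the whole array, with a symbol for 3.09% of the 25291 probe sets whose mean was above 6 in all 5 earlier stages, which are called the bright probe sets here. The members are therefore given by probe set ID, in which Ta is followed by the UniGene cluster number and TaAffx marks designs made from other expressed sequences. No probe sequence was used here.

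The members came from 42 sequence clusters. Ta.21271, Ta.5587, Ta.7442 and Ta.7389 each gave 2 members, which share sequence and are not separate observations. Ta designs made up 76.1% of the members and 70.8% of the bright probe sets. Probe sets whose ending marks possible signal from related transcripts numbered 7 ending in _x_at, 3 in _s_at and 1 in _a_at. The other 35 (76.1%) had the plain ending, against 68.8% of the bright probe sets. A further 21 probe sets of 9 of these clusters were not members. Of these, 11 were below 6 in at least 1 earlier stage and 10 were bright, and 7 of the 10 were also at least 1 lower in IP than in every earlier stage. The nearest were Ta.21271.2.S1_at (-1.95) and Ta.21271.2.S1_x_at (-1.93), both just under the limit of 2.

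Until the tetrads the members were among the strongest signals on the arrays. Their median stage means were 10.99 in PM, 11.08 in LP, 11.16 in DA, 11.37 in TT and 11.09 in T, then 7.68 in IP and 6.63 in MAN. The bright probe sets had medians of 8.31, 8.35, 8.31, 8.26, 8.23, 8.25 and 7.73 in the same order of stages. Among all probe sets, the members had a median percentile of 94.9 in PM and 95.2 in T, then of 74.4 in IP and 65.2 in MAN. Most were thus reduced rather than undetected in IP, where 38 of the 46 still had a mean of at least 6 and only TaAffx.64962.1.S1_at and Ta.19239.1.S1_x_at had a mean below 5.

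**Figure D1:**
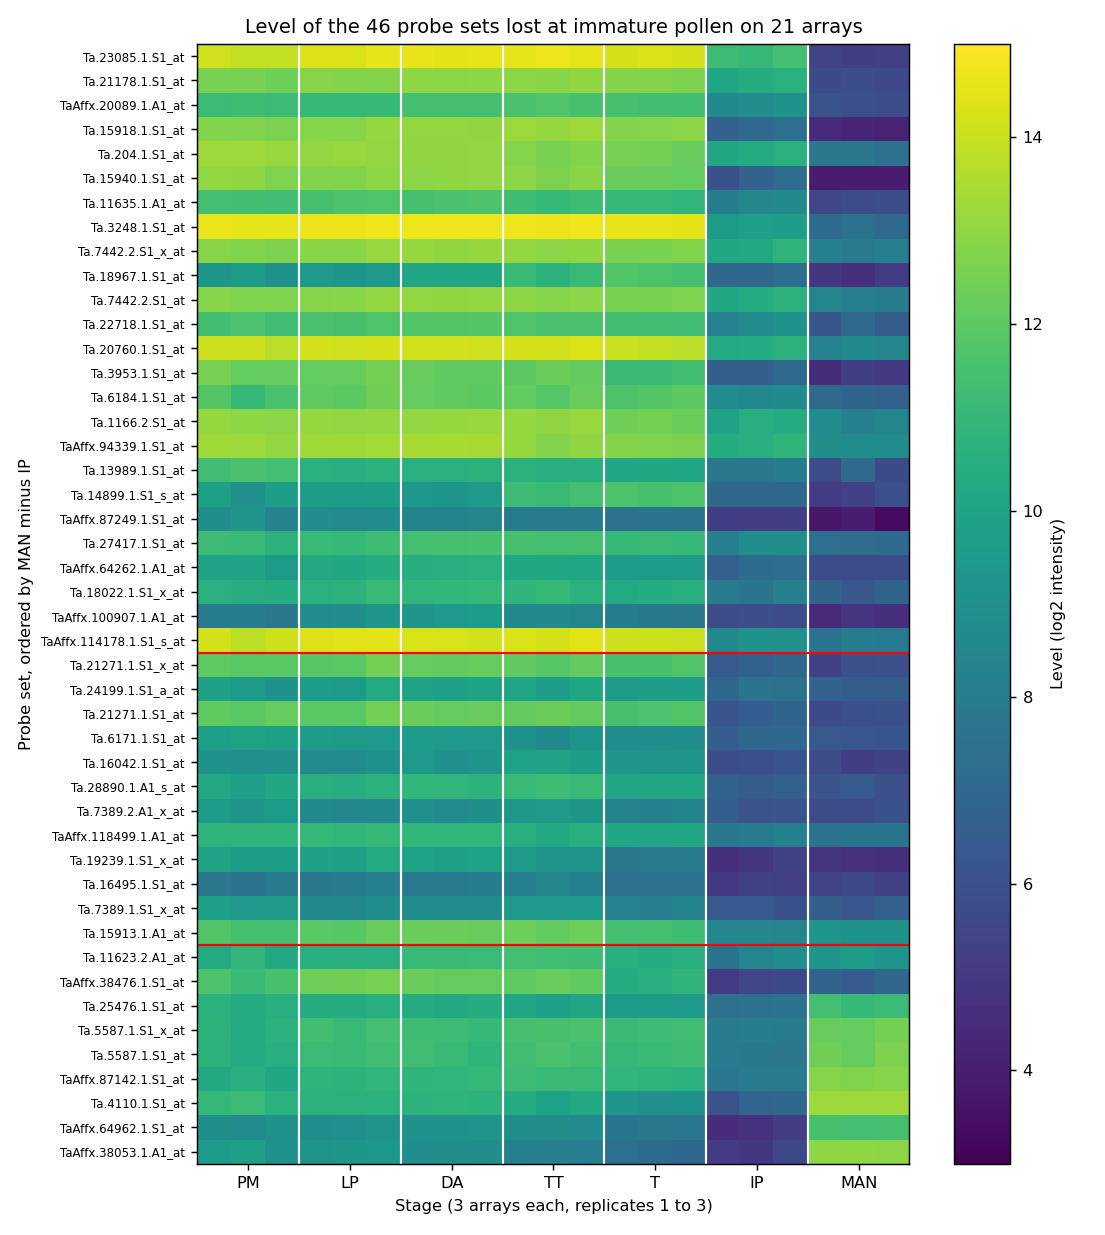
Log2 intensity (colour) of the 46 probe sets (rows) on the 21 arrays (columns, 3 per stage, in the order of development), with rows ordered by the MAN minus IP difference. Red lines divide the 25 probe sets at least 1 lower in MAN than in IP, the 12 within 1 and the 9 at least 1 higher, and the IP columns are darker than every earlier column in all 46 rows.

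The IP mean minus the lowest of the 5 earlier means had a median of -2.44 and a range of -5.62 to -2.0. Against T alone the median difference was -2.54, while that of the bright probe sets was -0.05. All 3 IP arrays were below all 15 earlier arrays in 46 of 46 members, which the rule made likely, and in 13.2% of the bright probe sets. The narrowest gap was 1.40, in TaAffx.38053.1.A1_at. Losses of this size were rare, since the members were 0.182% of the bright probe sets, whereas 0.538% of them (136) stood at least 2 above every earlier stage in IP.

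The losses fell into a shallow majority and a deep minority, with 36 members between 2 and 3 below the lowest earlier mean, 10 at 3 or more and 8 at 4 or more. Those 8, from 7 clusters, were 21.3- to 53.3-fold lower in IP than in T. No member lay between -4.41 (Ta.3953.1.S1_at) and -3.44 (Ta.28890.1.A1_s_at). At the limit itself, Ta.204.1.S1_at (-2.02), Ta.6171.1.S1_at (-2.0041) and TaAffx.38053.1.A1_at (-2.0012) were just inside. TaAffx.52189.1.S1_at (-1.997), Ta.5488.1.A1_at (-1.98) and Ta.5953.1.S1_at (-1.98) were just outside, and 73 bright probe sets lay between -1.5 and -2, so the set has no natural edge at 2.

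The deepest loss was that of Ta.15918.1.S1_at. Its stage means were 12.72 in PM, 12.91 in LP, 13.04 in DA, 13.19 in TT and 12.84 in T. The IP arrays read 6.77, 7.11 and 7.43, against 12.80, 12.81 and 12.91 on the T arrays, a 53.3-fold lower level. The MAN arrays fell further, to 4.45, 4.31 and 4.20.

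Ta.15940.1.S1_at followed almost the same course. It read 6.0, 6.77 and 7.28 on the IP arrays, against 12.22, 12.21 and 12.17 on the T arrays, and 3.98, 3.94 and 3.92 on the MAN arrays. Its IP arrays spread over 1.27, the widest of any member, and all of them lay far below its T arrays.

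TaAffx.38476.1.S1_at had IP values of 5.09, 5.55 and 5.68, against 10.44, 10.57 and 10.84 in T. Its mean was already lower in T (10.62) than in TT (12.10). The MAN arrays read 6.80, 6.5 and 6.96, above the IP arrays without overlap but far below every earlier array.

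The brightest member was Ta.3248.1.S1_at, whose 5 earlier means spanned only 0.149, with the lowest in T (14.56) and the highest in DA (14.71). It read 9.52, 9.78 and 9.69 in IP, against 14.59, 14.56 and 14.53 in T, a 29.7-fold lower level. Its MAN arrays read 7.20, 7.54 and 7.11, a difference of -2.38 from IP.

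TaAffx.114178.1.S1_s_at, a probe set that several transcripts can share, was of similar brightness. Its IP arrays read 8.61, 9.10 and 9.06, against 14.08, 14.07 and 14.06 in T. The pair of Ta.21271 probe sets gave one profile, with IP values of 6.18, 6.60 and 6.88 for Ta.21271.1.S1_at and 6.39, 6.71 and 7.06 for Ta.21271.1.S1_x_at, against T means of 11.62 and 11.59. Both stayed within 1 of their IP mean in MAN.

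Ta.3953.1.S1_at had IP values of 6.65, 6.63 and 7.10, against 11.10, 11.15 and 11.37 in T. Ta.20760.1.S1_at, another very bright member, kept a high level after its loss, with 10.36, 10.38 and 10.70 in IP against 14.00, 13.91 and 13.78 in T. Ta.28890.1.A1_s_at read 6.71, 6.54 and 6.70 in IP and 10.04, 10.21 and 10.15 in T. In each of these the IP arrays stood well apart from the T arrays, as the rule required of their means.

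Several members of the shallow majority were bright and lost only part of their signal. TaAffx.94339.1.S1_at read 10.41, 10.57 and 10.83 in IP, against 12.76, 12.75 and 12.63 in T. The Ta.7442 pair again gave one profile, with 10.13, 10.42 and 10.71 in IP against 12.57, 12.57 and 12.66 in T for Ta.7442.2.S1_at, and 10.13, 10.30 and 10.79 against 12.58, 12.6 and 12.75 for Ta.7442.2.S1_x_at. Another probe set of that cluster, Ta.7442.1.S1_at, did not share it, with a mean of 8.82 in IP against 7.87 in T.

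Ta.204.1.S1_at, the member with a gene symbol, was much brighter than its neighbours at the limit of the rule. It read 10.19, 10.40 and 10.63 in IP, against 12.54, 12.51 and 12.23 in T, and 7.75, 7.81 and 7.46 in MAN. It stood highest in PM (13.20) and lower in each following stage.

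**Figure D2:**
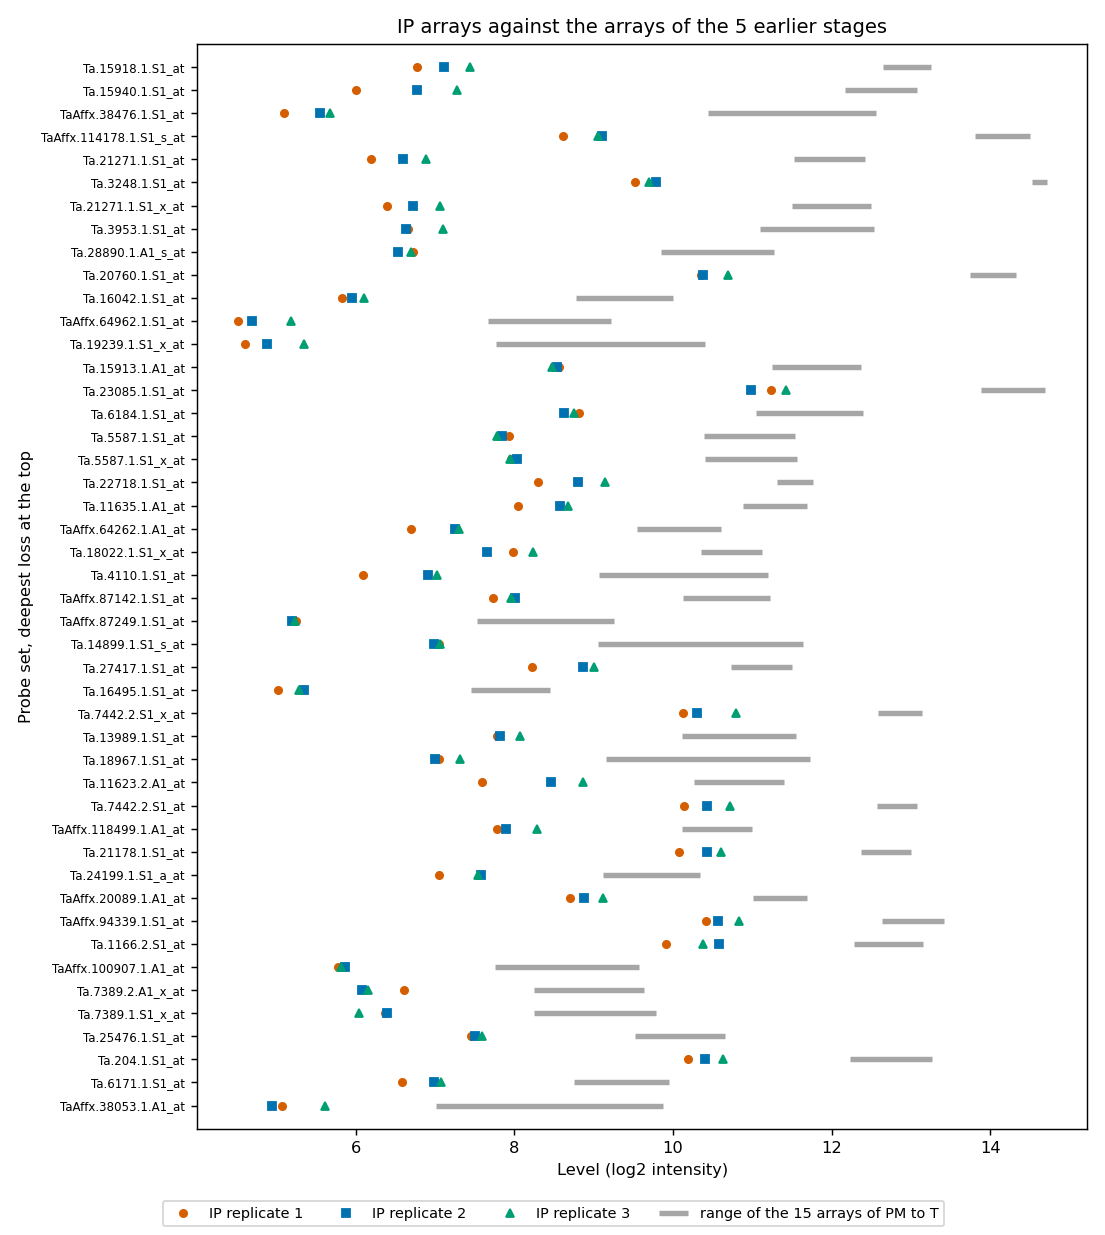
Log2 intensity of the 3 IP arrays (coloured symbols, 1 per replicate) for each of the 46 probe sets, with the deepest loss at the top, against the range of the 15 arrays of PM, LP, DA, TT and T (grey bar). Symbols and bars never overlap, and IP replicate 1 is the lowest of the 3 in 32 of the 46 rows.

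The 3 IP arrays were not equal. IP replicate 1 was the lowest in 32 members, replicate 2 in 10 and replicate 3 in 4, with member medians of 7.52, 7.62 and 7.69. Its spiked hybridization controls averaged 8.69, against 9.90 to 11.30 on the other 20 arrays, and its 18S rRNA control read 8.55, against 12.17 to 13.78. The SD between IP arrays had a median of 0.267 over the members and 0.164 over all probe sets. Without IP replicate 1, 40 probe sets met the rule, 38 of them members, so those 38 did not need that array to meet it. Without IP replicate 3, which gives replicate 1 more weight, there were 56, including 45 members. After scaling each array to its hybridization controls 22 probe sets met the rule, all of them members, whereas with that scaling and IP replicate 1 left out 56 did, 42 of them members. Medians over all probe sets, which joint RMA makes similar, were 5.56 to 5.71, and replicates correlated at 0.989 to 0.998. The poly-A controls, added before labelling, ran between 6.71 and 8.12, with 8.10 on IP replicate 3 against 7.11 and 7.0 on IP replicates 1 and 2, and 7.59 on T replicate 3 against 6.75 and 6.76 on the other T arrays. The hybridization controls averaged 11.20 in MAN, above every other stage. The part of these differences in the members' values was not tested beyond the alternatives given here.

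Genes taken here as markers of anther cells did not show such a loss, though not all of them can be shown to track those cells. The meiotic genes ASY1, DMC1, MSH4, PHS1 and RAD51C, which act in chromosome pairing and recombination, differed by -1.14 to 0.47 between IP and T (5 probe sets). Their mean level was 8.21 in IP against 8.56 in T, and 6.14 in MAN. DMC1 still stood at 9.63 in IP, after meiosis. RAD51C was at 5.13 in T, below the median of all probe sets (5.62), where a loss of 2 could hardly be seen. The tapetum-expressed raftins (4 probe sets) stood 0.28 to 0.81 higher in IP than in T, with a mean level of 13.03 against 12.48, and were at 8.33 in MAN. Photosynthesis genes of the green anther wall (PRK, PsbP and FBP, 5 probe sets) were 0.19 to 1.24 higher in IP, with a mean level of 9.87 against 9.09. The profilins, actin-binding proteins abundant in pollen, lay between -0.38 and 0.05 (2 probe sets). Their mean level was nearly flat, from 11.77 in IP to 12.29 in LP, and thus did not follow pollen maturation. None of these 16 markers was 2 or more lower in IP than in T. Over a wider list of 36 photosynthesis probe sets, of which 11 were bright, the median IP minus T difference was 0.02. The median level of that list was 5.05 in T and 5.11 in IP, below the medians of all probe sets (5.62 and 5.60). Its median difference therefore cannot show whether expressed photosynthesis genes rose in general. The deepest difference between IP and the lowest earlier stage in that list was -0.52 (TaAffx.128414.196.S1_at). The part of cell composition in the loss was not tested beyond these values.

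Of 16 gene lists matched through the annotation, with 132 probe sets of which 71 were bright, none held a member. Histones H2A and H2B, the DNA-packing proteins made in dividing cells, came nearest. All 18 of their probe sets were bright, and the deepest difference between IP and the lowest earlier stage was -0.90 (Ta.29542.1.S1_x_at). The 10 tubulin probe sets, subunits of the microtubules, had a deepest value of -0.57. Ribosomal proteins (3 probe sets, -0.41), translation factors (6 probe sets, -0.37) and beta-1,3-glucanases (3 probe sets, -0.14), enzymes of a class that cleaves callose, showed less. Most members were not in any list because they had no annotation, so the lists say which named genes were outside the set and not what the members encode.

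The earlier stages were also compared among themselves. The rule used the means of PM, TT and T, each as a floor and as a level for IP to fall below, but not the differences between them, so these comparisons are not wholly separate from the choice of members. Since each stage was 1 pool, a call says that a pair of pools differed by more than the spread between arrays of a pool. T was compared with TT, and TT with PM, in 1 limma fit over all 21 arrays, with Benjamini-Hochberg adjustment over 61179 probe sets and a call at an adjusted p under 0.05. Lower in T than in TT were 19 of the 46 members (41.3%), where 3.09% of all probe sets and 6.6% of the bright ones were called lower. Only 1 member (2.17%) was higher, where 3.13% of all and 5.13% of the bright probe sets were called higher. These shares were not matched for level, since the median T mean was 11.09 over the members and 8.23 over the bright probe sets. The median SD between T arrays was 0.0785 over the members and 0.0963 over all probe sets, and a smaller spread makes calls easier. The median T minus TT difference was -0.39 over the members and -0.01 over all probe sets, and 44 of the 46 fell below 0. The direction was thus shared widely while 26 of the single differences were not called. After scaling to the hybridization controls only 2 members passed as lower in T (25 of all probe sets), and 42 were below 0. The medians were then -0.22 over the members and 0.16 over all probe sets. Every member had an SE of 0.337 in that fit, against 0.105 to 0.212 without the scaling, in both contrasts.

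The most negative T minus TT differences were those of Ta.19239.1.S1_x_at and TaAffx.38476.1.S1_at. Ta.19239.1.S1_x_at read 7.76, 7.89 and 7.90 in T, against 9.47, 9.22 and 9.32 in TT, and the groups did not overlap. Its difference was -1.48 ± 0.16 (SE, adjusted p = 1.6e-07). TaAffx.38476.1.S1_at read 10.44, 10.57 and 10.84 in T, against 12.0, 12.23 and 12.08 in TT, a difference of -1.48 ± 0.15 (adjusted p = 1.1e-07).

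TaAffx.64962.1.S1_at read 7.67, 7.79 and 7.72 in T, against 8.99, 8.92 and 8.77 in TT (-1.16 ± 0.13). Both Ta.7389 probe sets also fell, Ta.7389.1.S1_x_at to 8.33, 8.25 and 8.41 in T, against 9.43, 9.47 and 9.51 in TT, and Ta.7389.2.A1_x_at to 8.38, 8.24 and 8.41, against 9.39, 9.47 and 9.37. Their differences were -1.14 ± 0.13 and -1.06 ± 0.13. Adjusted p-values of these 3 probe sets were between 5e-07 and 1.2e-06, and in each the T and TT arrays were clear of each other.

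The single member called higher in T was Ta.18967.1.S1_at. It read 11.73, 11.62 and 11.48 in T, against 11.15, 10.70 and 11.14 in TT, a difference of 0.62 ± 0.14 (adjusted p = 0.0045). The low TT value was that of replicate 2, and without that array the adjusted p was 0.052. No other member was called higher.

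**Figure D3:**
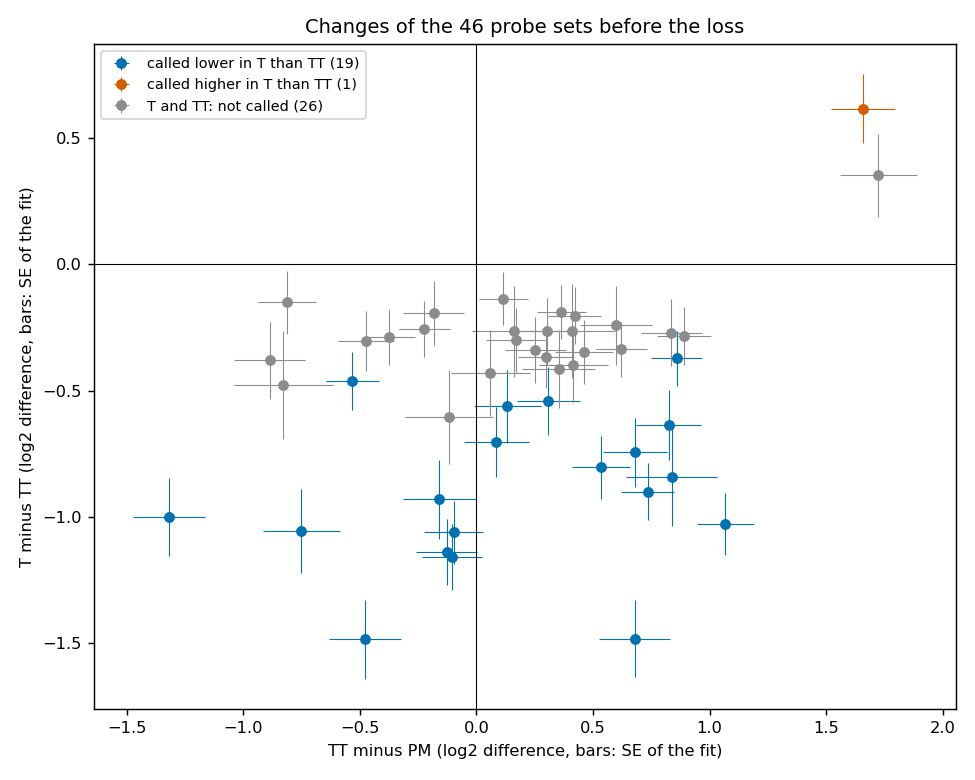
Change of the 46 probe sets in T relative to TT (vertical axis) against their change in TT relative to PM (horizontal axis), both as log2 differences with the SE of the limma fit as bars. Points coloured as lower (19) or higher (1) in T than in TT passed an adjusted p of 0.05, and both contrasts share the TT arrays, so the layout is a description and not a relation that was tested.

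Over meiosis itself the members were mixed. Higher in TT than in PM were 17 (37.0%), where 3.5% of all probe sets and 6.15% of the bright ones were called higher. Lower were 8 (17.4%), against 4.44% of all and 8.7% of the bright probe sets, and 21 were not called. The median difference was 0.28. After scaling to the hybridization controls 2 were higher and 0 lower, with 13 and 4 at an unadjusted p under 0.05. The methods' t-test with the same adjustment called 0 in either direction, with 20 higher and 9 lower at an unadjusted p under 0.05. Over all probe sets the scaling left 183 called higher and 63 lower, and the t-test 94 and 87. Together the pair of contrasts gave 8 members that were higher in TT and then lower in T, 8 that were lower in T only, 3 that were lower in both and 13 called in neither. These contrasts share the TT arrays, and a high reading there moves them in opposite directions. The 8 called higher in TT and then lower in T were TaAffx.38476.1.S1_at, Ta.28890.1.A1_s_at, Ta.16042.1.S1_at, Ta.15913.1.A1_at, TaAffx.87142.1.S1_at, Ta.16495.1.S1_at, Ta.11623.2.A1_at and TaAffx.100907.1.A1_at. TT was the highest of the earlier stages in 6 of them, while TaAffx.38476.1.S1_at stood highest in LP (12.44) and TaAffx.100907.1.A1_at in DA (9.43). Of these calls, the TT against PM call of TaAffx.38476.1.S1_at was lost without PM replicate 2 and that of Ta.16495.1.S1_at without TT replicate 2, and the T against TT call of TaAffx.87142.1.S1_at was lost in all 6 omissions of a single T or TT array. The 3 lower in both were TaAffx.38053.1.A1_at, Ta.4110.1.S1_at and Ta.25476.1.S1_at, which were also among the members that stood high again in MAN.

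The largest rise was that of Ta.14899.1.S1_s_at, with 11.22, 11.08 and 11.42 in TT against 9.81, 9.05 and 9.70 in PM (1.72 ± 0.17, adjusted p = 6.5e-08). It remained at 9.39 in DA and stepped up only at TT, stood at 11.59 in T, and read 7.05, 6.99 and 7.07 in IP. Ta.18967.1.S1_at rose in TT by 1.66 ± 0.14 (adjusted p = 4.2e-09), to 11.15, 10.70 and 11.14, against 9.32, 9.55 and 9.15 in PM. For these 2 members the T level was the highest of the earlier stages, and the fall from it was steep, at 23.5-fold and 22.6-fold lower in IP than in T.

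Ta.28890.1.A1_s_at was 1.07 ± 0.12 higher in TT (11.14, 11.27 and 11.08) than in PM (10.22, 9.85 and 10.21), and lower in T than in TT by a difference of -1.03 ± 0.12, with an adjusted p of 1.2e-06 for each. Its profile was thus a peak at the telophases. Ta.5587.1.S1_x_at (0.89 ± 0.12) and TaAffx.87142.1.S1_at (0.86 ± 0.11) also rose in TT, with adjusted p-values of 7.7e-06 and 5.4e-06.

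The most negative TT minus PM difference was that of TaAffx.38053.1.A1_at, which read 8.26, 8.22 and 8.14 in TT against 9.56, 9.87 and 9.15 in PM (-1.32 ± 0.15, adjusted p = 1.7e-06). It was then lower again in T than in TT (-1.0 ± 0.15, adjusted p = 6.7e-05), so that its 5 earlier means of 9.53, 9.33, 8.94, 8.21 and 7.21 declined at each step. TaAffx.87249.1.S1_at (-0.89 ± 0.15), Ta.13989.1.S1_at (-0.83 ± 0.21), Ta.6171.1.S1_at (-0.81 ± 0.12) and Ta.4110.1.S1_at (-0.75 ± 0.17) were also lower in TT than in PM. Their adjusted p-values were 3e-04, 0.014, 7.4e-05 and 0.0044. The call of Ta.13989.1.S1_at was lost without PM replicate 2 or without TT replicate 2, with an adjusted p of at most 0.065.

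Across the earlier stages the members moved more than other bright probe sets. That group was not matched for level, with a median PM mean of 8.31 against 10.99 for the members, and the rule used the lowest earlier mean. The range of the 5 earlier means had a median of 0.83, against 0.43 for the bright probe sets, and was 1 or more in 14 members (30.4%), against 7.09%. The lowest earlier stage was T in 31 members, PM in 12, LP in 2, DA in 1 and TT in none, and T was lowest in 35.7% of the bright probe sets. The highest was DA or TT in 14 members each, PM in 10, LP in 6 and T in 2. Peaks in DA and TT were found in 18% and 12.2% of the bright probe sets.

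From immature pollen to mature anthers the members parted. At least 1 lower in MAN than in IP were 25 of the 46, within 1 were 12, and at least 1 higher were 9. Among the bright probe sets 31.2% were at least 1 lower and 11.1% at least 1 higher. Relative to the earlier stages, 37 members (80.4%) remained at least 2 below every earlier mean in MAN, against 11.7% of the bright probe sets. All of these are descriptions, because the IP and earlier levels chose the members. After scaling to the hybridization controls, 36 of the 46 were at least 1 lower in MAN than in IP and 7 at least 1 higher.

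The 25 that fell further had a median IP mean of 8.73 and a median MAN mean of 6.18. Ta.23085.1.S1_at lost most, with 5.42, 5.24 and 5.26 in MAN against 11.23, 10.98 and 11.42 in IP, a difference of -5.91. In T it had read 14.24, 14.31 and 14.22, so that it descended in 2 large steps. Ta.21178.1.S1_at behaved alike, with 5.71, 5.83 and 5.64 in MAN against 10.08, 10.42 and 10.61 in IP (-4.64). TaAffx.20089.1.A1_at read 6.07, 5.91 and 5.87 in MAN and 8.70, 8.88 and 9.12 in IP (-2.95).

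The 9 that were higher in MAN had a median IP mean of 7.51 and a median MAN mean of 12.29. In 7 of them all 3 MAN arrays lay above all 15 earlier arrays. No other member showed this, and 7 of all 46 members was a smaller share than the 23.2% of the bright probe sets with this pattern. IP was thus a low point between 2 periods of high signal for these 7 and not the start of a lasting absence.

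TaAffx.38053.1.A1_at changed most, with 12.97, 12.96 and 12.90 in MAN against 5.07, 4.94 and 5.61 in IP, a difference of 7.74. TaAffx.64962.1.S1_at read 11.51, 11.40 and 11.44 in MAN and 4.51, 4.69 and 5.18 in IP, a difference of 6.66. The IP means of both lay below the median of all probe sets, where a reading may be background, so no fold is given. Ta.4110.1.S1_at had 13.25, 13.23 and 13.26 in MAN and 6.09, 6.91 and 7.02 in IP (6.57). These 3 were the members whose T level was also 1 or more below TT and whose MAN level passed all earlier stages.

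TaAffx.87142.1.S1_at was 4.90 higher in MAN (12.84, 12.72 and 12.83) than in IP (7.73, 8.0 and 7.96). The Ta.5587 pair gave 12.38, 12.18 and 12.65 in MAN against 7.93, 7.84 and 7.78 in IP for Ta.5587.1.S1_at, and 12.22, 12.18 and 12.48 against 7.95, 8.03 and 7.94 for Ta.5587.1.S1_x_at. Ta.25476.1.S1_at was 3.69 higher, at 11.40, 11.05 and 11.17 in MAN against 7.45, 7.5 and 7.59 in IP. The other 2 of the 9 returned only in part, TaAffx.38476.1.S1_at to 6.75 in MAN against 5.44 in IP and Ta.11623.2.A1_at to 9.37 against 8.31, both below every earlier stage mean.

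**Figure D4:**
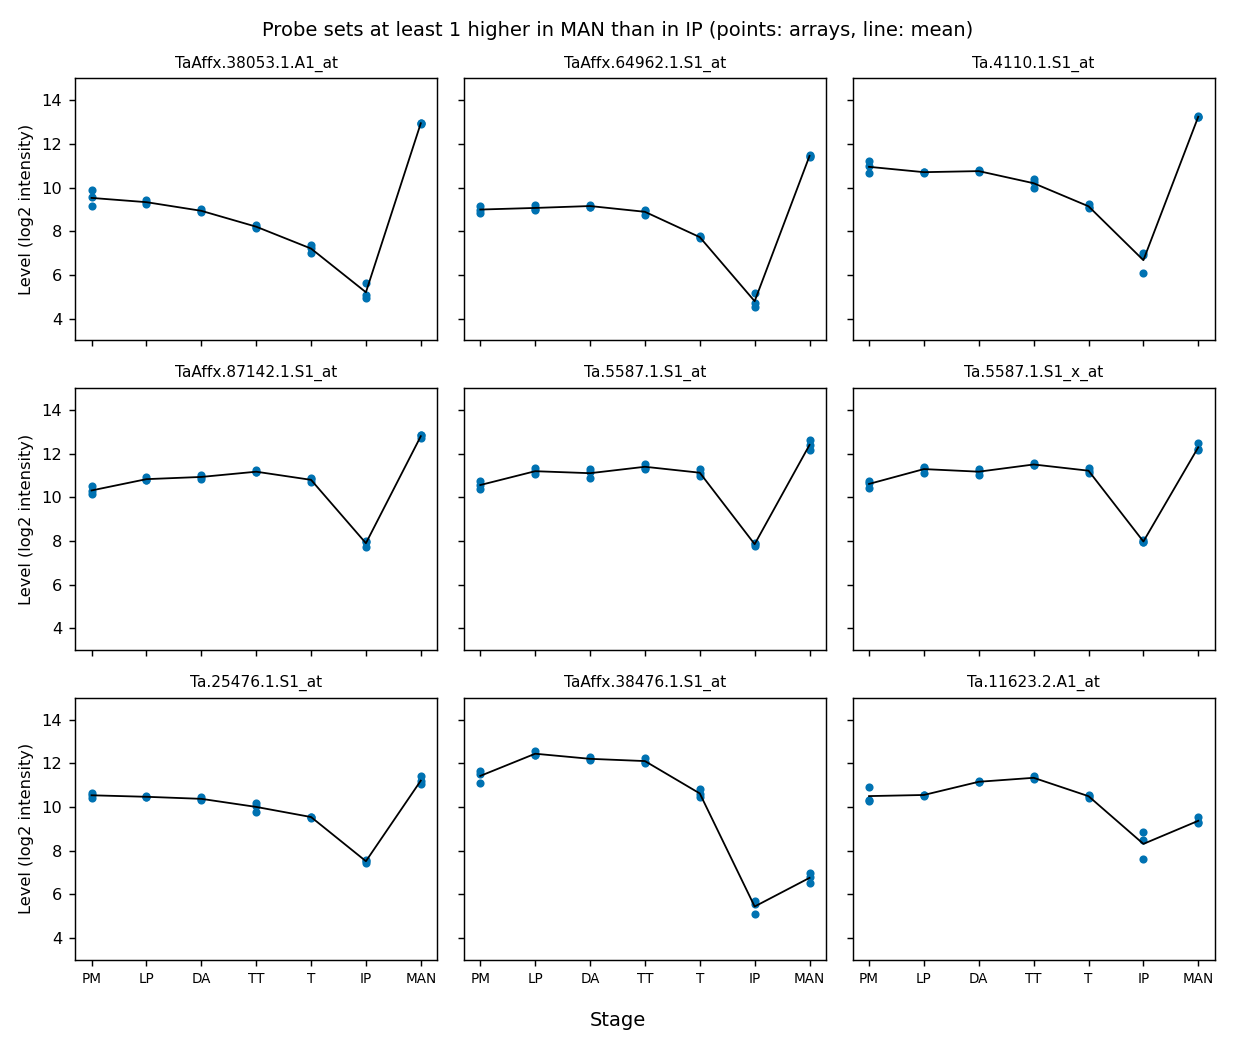
Log2 intensity over the 7 stages for the 9 probe sets whose MAN mean was at least 1 above the IP mean (points are the 3 arrays, the line joins the stage means, and the axis does not start at 0). In 7 panels the MAN points lie above all earlier points, while TaAffx.38476.1.S1_at and Ta.11623.2.A1_at remain below them.

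The T against TT calls were also counted by the course in MAN, and differences between these counts were not tested. Of the 9 higher in MAN, 7 were called lower in T than in TT, with a median T minus TT of -0.84. The call of TaAffx.87142.1.S1_at among these 7 was lost in all 6 omissions of a single array, and that of Ta.25476.1.S1_at in 3 of 6. Of the 12 within 1, 8 were called lower (median -0.72), and of the 25 that fell further, 4 (median -0.34). Among the 8 deepest losses, 3 were called lower in T than in TT, where 19 of all 46 members were. The others were not called but were also below 0, from -0.604 (Ta.15940.1.S1_at) to -0.136 (Ta.3248.1.S1_at). Whether the size of the loss in IP went with an earlier decline was not tested.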

How the data were processed

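Total RNA of whole anthers was amplified, labelled and hybridized to Affymetrix Wheat Genome Arrays, and the authors normalized the 21 arrays together by RMA. The deposited values were linear intensities, and log2 was taken here with no further normalization. Of 61290 rows, 111 control probe sets and then the 17 of the study's Q-PCR primer list were set aside in choosing members, and 61179 probe sets were tested. Probe sets that the authors excluded for technical reasons are not marked in the values used here and were kept. The 64 reporter probe sets, a kind that the authors removed, were also kept. Arrays give no read depth, and 3 arrays per stage limit the precision.

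Stage groups came from the labels. The members and the gene lists were chosen with earlier results of these data known. Tests used limma 3.58.1 in R 4.3.3 (lmFit and eBayes, 7 stages in 1 fit, 14 residual and 10.6 prior degrees of freedom). The study's methods used a Student test on the stages compared, which was an alternative. The script was tested on simulated data. Values are given for members with a symbol, the 10 deepest losses, the 5 brightest, the 5 largest called changes in each direction, the 5 highest and lowest MAN minus IP differences, those nearest the limit, and those sharing a cluster. The replicate numbers did not pair the arrays, since deviations of same-numbered arrays from their stage means correlated between -0.14 and 0.08. Python 3.11.15 with pandas 2.3.3 and numpy 2.4.6 was used for the counts.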

Additional observations from a re-analysis of the deposited data

How the results depend on the processing

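The number of members depended on the limits chosen. It was 119 when IP had to be 1.5 below each earlier stage, 10 at 3 below, 17 when MAN had to be below 6 and below IP, and 22 after scaling to the hybridization controls. Leaving out 1 array at a time gave 40 to 56. In the same omissions the counts in MAN were 36 to 37 (2 below all earlier stages), 8 to 9 (1 above IP) and 24 to 26 (1 below IP). After scaling to the hybridization controls these counts were 38, 7 and 36, and with IP replicate 1 also left out they were 38, 7 and 34.

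Members lower in T than TT numbered 19. They were 8 with a 2-fold minimum, 40 with array weights, 2 after scaling to the hybridization controls and 16 by the methods' t-test (13 shared with limma). Leaving out 1 array gave 16 to 22. Calls over all probe sets moved as well, from 1891 lower in T to 108, 5715, 25 and 825 in the first 4 alternatives. The changes in the member counts are thus not particular to the members. The 1 member higher in T was 0 with a 2-fold minimum, after that scaling, by the methods' t-test and without TT replicate 2 (range 0 to 1), and the last 3 fits had 1, 2 and 1 members higher at an unadjusted p under 0.05. Members lower in TT than PM (8) were 1 with a 2-fold minimum and 0 after scaling or by the methods' t-test, where 4 and 9 had an unadjusted p under 0.05. The range was 5 to 9, the 5 being without TT replicate 2. Members higher in TT (17) were 3, 2 and 0 under the same alternatives, and 13 to 18 when 1 array was left out. At an unadjusted p under 0.05 there were 13 after scaling and 20 by the methods' t-test. Over all probe sets 2715 were called lower in TT, 232 with a 2-fold minimum and 63 after scaling. The same counts for higher in TT were 2140, 259 and 183.

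The methods' t-test, adjusted over all probe sets, called 87 of them lower and 94 higher in TT than in PM. Scaling to the hybridization controls moved the median of all probe sets by 0.12 (TT minus PM) and 0.16 (T minus TT). Of 16 named differences, 12 lost their call under it and none changed sign, and with median centring all 16 kept theirs. The SE of every member was 0.337 after scaling to the hybridization controls, against 0.105 to 0.212 in the main fit. A lost call there thus went with a larger SE and need not mean a smaller difference. With the replicate number as a block the counts were 19, 1, 8 and 17, as without it. Of the called members, 15 of 19 (lower in T), 5 of 8 (lower in TT) and 11 of 17 (higher in TT) were called whichever array of those stages was left out. Adding the poly-A control level as a covariate and leaving out IP replicate 1 were chosen after the data were seen, and gave 26 and 22 members lower in T. The causes of these differences were not tested.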
